A study of Rattus norvegicus with 36 samples.

Results

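Slc26a4 encodes pendrin, an anion exchanger of the apical membrane, and Lpo encodes lactoperoxidase, a secreted haem peroxidase. The members were taken as every probe whose gene symbol in the array annotation was Slc26a4 or Lpo, and 2 of the 21792 probes met this rule, 1 for each gene. They are 2 of the 9078 genes that passed the detection filter and were tested. Both genes were known to respond to silica in these same arrays when they were chosen, so their differences between silica and air are described here with no test. The arrays measured total RNA from whole lung of male CDF Fisher 344 rats aged 3 months, 1 rat per array. The exposed rats inhaled crystalline silica, a mineral dust, at 15 mg/m3 for 6 h a day on 5 days a week during 3, 6 or 12 weeks, and each length of exposure had its own rats that breathed air in place of the dust. Each of the 6 groups held 6 rats, so 36 arrays entered every fit.

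In the airways, thiocyanate from the blood crosses the epithelium and leaves through apical anion channels and exchangers, of which pendrin is one. Epithelial NADPH oxidases supply hydrogen peroxide, and lactoperoxidase uses it to oxidise thiocyanate to hypothiocyanite, a short-lived oxidant that kills microbes in the surface liquid. Pendrin also exchanges chloride for bicarbonate and iodide, is best known from the thyroid, the inner ear and the kidney, and is induced in airway epithelium by interleukins such as IL-13 and IL-17A.

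Slc26a4 (Entrez 29440) lies on the minus strand of rat chromosome 6 at chr6:53835102-53873968 and Lpo (Entrez 287610) on the minus strand of chromosome 10 at chr10:73104170-73124683, both in the RefSeq annotation of GRCr8. The sources used here do not place the array probes within the transcripts. The bases upstream of the Lpo start site are shown because Lpo was the member whose probe crossed the detection limit during the exposure. They are the 250 bases before the start in the RefSeq promoter table, chr10:73123457-73123706 on the minus strand, written 5′ to 3′, with the matched motifs in capitals. This start lies 1227 bases inside the annotated span of the gene, so a longer transcript model starts further upstream.
Lpo upstream: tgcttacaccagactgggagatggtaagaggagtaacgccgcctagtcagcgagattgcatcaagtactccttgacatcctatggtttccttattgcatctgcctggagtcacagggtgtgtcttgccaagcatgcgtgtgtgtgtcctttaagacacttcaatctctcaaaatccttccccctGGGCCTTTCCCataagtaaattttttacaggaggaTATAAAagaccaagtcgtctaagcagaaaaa
The capitals nearest the start are a TATA box (TATAAA) whose first base lies at -31 from the start, and 13.1% of the 27457 promoter windows of the table hold these letters in the same 250 bases on either strand. The other capitals are 2 overlapping matches to an NF-kB pattern, GGG and CC with any 5 bases between, first base at -66 on the gene strand and at -65 on the other. That loose pattern occurs in 43.5% of all windows, and the Slc26a4 window also holds 1 match, at -96. The Slc26a4 window starts from a site 752 bases inside the annotated gene, not at its outer end. Neither window holds TTCNNNGAA of STAT factors, its form with a spacer of 4 for STAT6, TGANTCA of AP-1 or TTNNGNAAT of C/EBP, all on either strand, which occur in 7.52%, 6.29%, 6.36% and 10.7% of windows. GC content was 45.6% in the Lpo window and 65.6% in the Slc26a4 window.

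Before the results, a few facts of the whole set bear on them. Arrays had mean raw intensities between 344.6 and 519, and 48.7% to 53.12% of probes were detected, that is, had a detection p under 0.05 against the negative-control beads. The number of arrays limits the precision of every value, and whether arrays shared a chip is not given in the labels. Of the variance, 54.5% lay on a first principal component that set the 6-week arrays, silica and air together, at 22.78 to 29.86, against -25.03 to 15.16 for the 3-week and 12-week arrays, so week and array batch cannot be told apart. Silica replicate 3 at 12 weeks (15.16) and air replicate 5 at 3 weeks (8.73) stood apart from the other arrays of their weeks. Some fitted differences and list counts are also given without both, whereas the correlations are not. The tissue label was borne out by the markers: type II pneumocyte genes had summed levels of 38660 to 50330 in every rat.

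Slc26a4 was detected in all 36 rats and was much brighter in every silica rat than in any air rat of the same week. At 3 weeks its raw intensity had a lowest, median and highest value of 890, 1063 and 1350 in silica rats, against 139.8, 249.8 and 493.6 in air rats. At 6 weeks these were 898, 1288 and 1818 in silica rats, against 97.14, 144.4 and 266.1 in air rats. At 12 weeks they were 1058, 1562 and 2607 in silica rats, against 143.2, 262.2 and 396.1 in air rats. The groups did not overlap at any week, and the dimmest silica rat was 1.80, 3.38 and 2.67 times as bright as the brightest air rat on the raw scale. A lack of overlap in this direction was found for 3.89%, 5.17% and 5.62% of the 9078 genes tested at 3, 6 and 12 weeks, a share from which nothing is read here because the gene was chosen on this contrast.

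**Figure D1:**
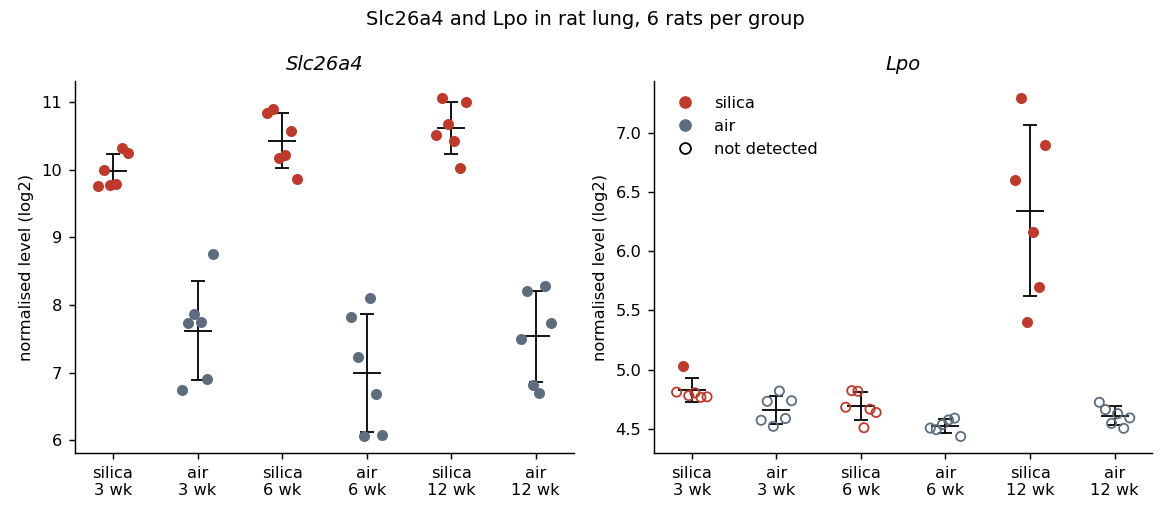
Normalised log2 level of Slc26a4 (left) and Lpo (right) in each rat, by treatment and weeks of exposure. Filled points were detected, open points were not, and bars give the mean and SD of 6 rats. Slc26a4 stands between 9.76 and 11.06 in silica rats and between 6.05 and 8.75 in air rats, while Lpo leaves the detection limit in all 6 rats of the 12-week silica group.

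After background correction and quantile normalisation, Slc26a4 averaged 9.98 ± 0.25 in silica rats and 7.62 ± 0.73 in air rats at 3 weeks (log2, SD, n = 6 each). The averages were 10.43 ± 0.41 in silica rats and 6.99 ± 0.87 in air rats at 6 weeks, and 10.62 ± 0.39 in silica rats and 7.54 ± 0.67 in air rats at 12 weeks. Silica minus air was thus 2.36 ± 0.32 at 3 weeks, 3.44 ± 0.32 at 6 weeks and 3.08 ± 0.32 at 12 weeks (log2, SE of the limma fit). As folds these were 5.13, 10.8 and 8.46. Ranked by the log2 difference among the 9078 tested genes, Slc26a4 was number 1 at 3 weeks, number 2 at 6 weeks and number 1 at 12 weeks. Without both arrays that stood apart the differences were 2.21 at 3 weeks and 3.07 at 12 weeks. In the authors' deposited table of log2 values the differences were smaller, 1.86, 2.60 and 2.51, on a scale whose transformation the sources used here do not state.

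The levels of Slc26a4 fell into a high and a low trio of groups. From the top, the order was silica at 12, 6 and 3 weeks, then air at 3, 12 and 6 weeks. Neighbours in this order differed by less than the SD of either group (0.19, 0.09 and 0.54 on the log2 scale) at 3 of the 5 steps. The steps beyond the SD were silica at 6 over silica at 3 weeks, by 0.45, and silica at 3 over air at 3 weeks, by 2.36. The difference between silica and air was 1.08 ± 0.46 larger at 6 than at 3 weeks, and from 6 to 12 weeks it changed by -0.36 ± 0.46 (log2, SE). Part of the wider 6-week difference lay in the air rats, in which the level at 6 weeks minus that at 3 weeks was -0.63 ± 0.32, in the week whose arrays stood apart.

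Slc26a4 also varied between rats of the same group more than nearly all other genes. Its within-group SD was 0.60 on the log2 scale, larger than that of 99.5% of tested genes, for which the median was 0.12. The air rats were the more uneven: brightest over dimmest normalised level was 4.05, 4.12 and 3.00 in air rats at 3, 6 and 12 weeks, against 1.47, 2.05 and 2.06 in silica rats. On the raw scale the contrast was smaller, with 3.53, 2.74 and 2.77 in air rats, against 1.52, 2.02 and 2.46 in silica rats. In the air groups the rats were spread out and not split by a single one: at 6 weeks the 6 levels ran 6.05, 6.07, 6.68, 7.22, 7.83 and 8.10.

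Lpo behaved differently and was detected in a whole group only at 12 weeks. At 3 weeks its raw intensity was 57.05, 59.44 and 68.63 in silica rats (lowest, median, highest), against 49.63, 55.48 and 60.46 in air rats, with 1 of 6 silica rats and 0 of 6 air rats above the detection limit. At 6 weeks it was 42.46, 55.87 and 64.08 in silica rats, against 44.56, 46.7 and 49.89 in air rats, and no rat of either group passed the limit. Since both groups were then at background, no fold is given for 6 weeks, and the groups overlapped at both of these weeks.

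At 12 weeks the Lpo probe passed the limit in all 6 silica rats, against 0 of 6 air rats. Its raw intensity was 126, 206.1, 72.14, 99.16, 73.13 and 173 in silica replicates 1 to 6, against 46.05, 49.16 and 52.44 in air rats (lowest, median, highest). Every silica rat lay above every air rat, and replicates 2, 6 and 1 were the brightest. The normalised level was 6.34 ± 0.72 in silica rats and 4.61 ± 0.08 in air rats (log2, SD, n = 6 each), the air value being no more than a bound. Measured against the lowest signal of any detected probe on the air arrays, or its own level where higher, Lpo was 3.18-fold higher in silica rats. That is not a firm lower limit. On air replicate 1, Lpo was undetected at a log2 level of 4.72, above the lowest detected signal of 4.67 on that array. The log2 difference of the fit, 1.73 ± 0.17 (SE), is given for the comparison of settings alone, since its air values lay at background.

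Lpo passed the filter of 6 arrays through the 12-week silica group, which held 6 of the arrays on which it was detected, beside 1 at 3 weeks. The other 5 groups, between 4.52 and 4.83, were at or near background and have no order among themselves. Within the 12-week silica group the brightest rat was 3.72 times the dimmest in normalised level. The dimmest was replicate 3, whose array stood apart, and without both such arrays the fitted 12-week difference was 1.92 ± 0.14. The fold of Lpo against the lowest detected signal belongs to the processing used here. The fitted difference was 0.51 in the authors' deposited table, 1.01 with an offset of 50, 0.98 with no background correction and 0.24 with the background taken from all probes, and the cause of these shifts was not tested.

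The 2 genes thus shared the direction and not the time course. Slc26a4 was high from 3 weeks on, whereas the probe of Lpo passed the detection limit in a whole group only at 12 weeks. Between rats they could be compared only in the 12-week silica group, since Lpo was detected in fewer than 4 rats of every other group. There the Pearson correlation of their levels was 0.69 (exact permutation test, two-sided, p = 0.126) and the Spearman correlation 0.66 (exact p = 0.175), with n = 6. This was 1 relation tested, so the adjusted p is also 0.126. Without the 2 rats farthest from the median of Slc26a4, r was 0.35 over the 4 that remained. With median scaling in place of quantile normalisation r was 0.86 (exact p = 0.0403), and over all 4 alternatives tried the exact p lay between 0.0403 and 0.108.

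**Figure D2:**
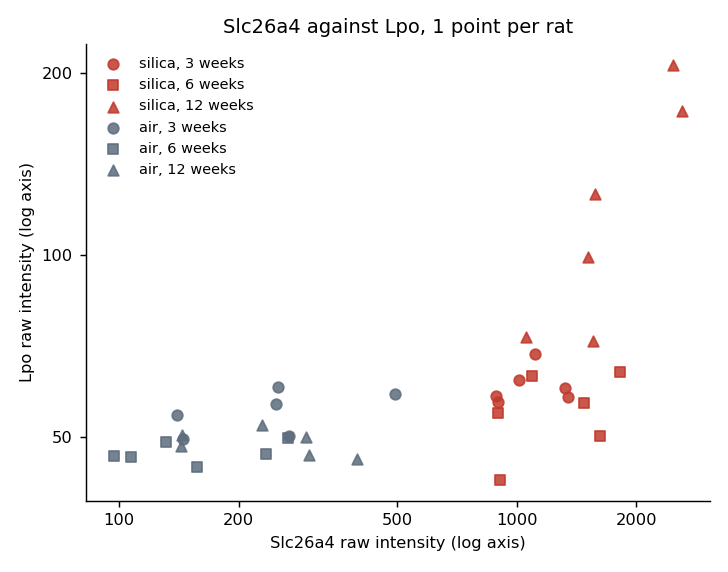
Raw intensity of Lpo against that of Slc26a4 in each of the 36 rats, on log axes. Colour marks treatment and shape marks weeks. The silica rats lie right of all air rats at 890 or more for Slc26a4, and only the 12-week silica rats reach 72.14 or more for Lpo.

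The 2 rats with the most Lpo, replicates 2 and 6, also had the most Slc26a4, 2467 and 2607 in raw intensity, and the brightest arrays of the group, with mean intensities of 480.1 and 513.3 against 401.6 to 448.2 in the other 4. Over the 6 rats the normalised level of Lpo had r = 0.87 and that of Slc26a4 r = 0.74 with the mean intensity of the array. With the median intensity of the array, r was 0.495 for Lpo and 0.94 for Slc26a4. Over the deviations from the group means on all 36 arrays, r with mean intensity was 0.54 for Lpo and 0.16 for Slc26a4. With median intensity it was 0.25 and -0.02 there. The part of array brightness in the relation between both genes was not tested.

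The genes most like Slc26a4 were sought by Pearson correlation over 36 arrays after the mean of the week's air group had been subtracted. They were Noxo1 (r = 0.98), which organises the NADPH oxidase NOX1, Tiam1 (0.98), an activator of the GTPase Rac, C4bpa (0.98), a chain of the complement inhibitor C4b-binding protein, and Lcn2 (0.98), the iron-withholding protein lipocalin 2. Slc13a2 (0.97), a carrier of dicarboxylates, Plet1 (0.97), Batf (0.97), a transcription factor of the AP-1 family, and Chst1 (0.97), a carbohydrate sulfotransferase, followed. All 8 were higher in silica rats at each week by 0.60 to 3.03 on the log2 scale, and in all 8 the difference was larger at 6 than at 3 weeks. By the limma contrast of the effects that growth was not called for Noxo1 (adjusted p = 0.343) or Lcn2 (adjusted p = 0.372). For the rest the test is not given here. This likeness rests mostly on the silica response and is a description across arrays that share normalisation.

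**Figure D3:**
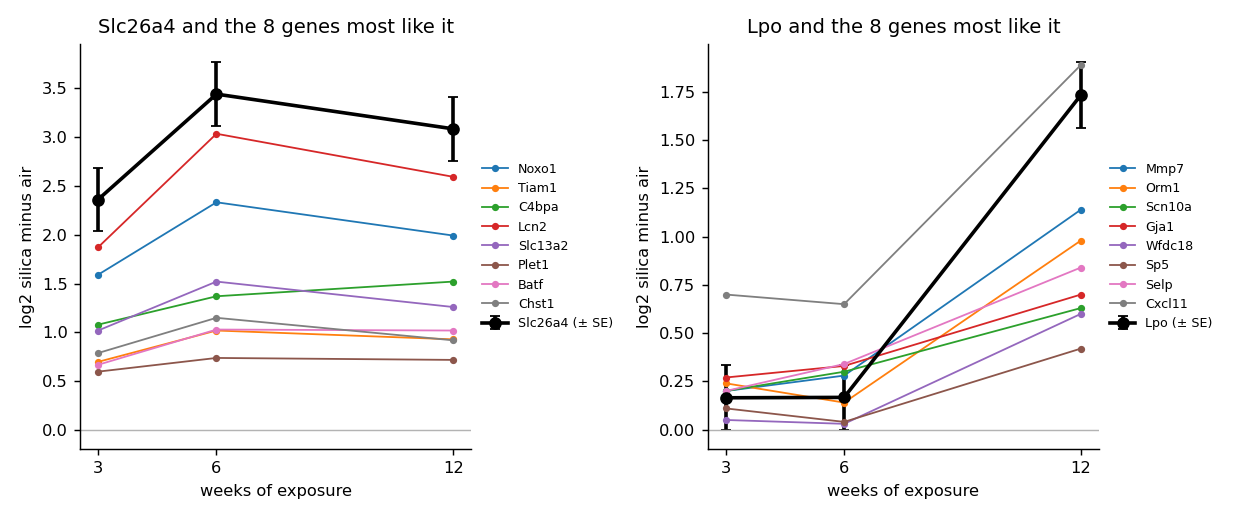
Difference between silica and air (log2) at 3, 6 and 12 weeks for Slc26a4 (left) and Lpo (right), in black with the SE of the fit, and for the 8 genes with the most similar pattern over 36 arrays. The genes most like Slc26a4 are already high at 3 weeks, and those most like Lpo have their largest difference at 12 weeks. Lpo itself was at or near background at 3 and 6 weeks.

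The spread of Slc26a4 between rats of 1 group was followed by some of the same genes. Over the deviations from the 6 group means the closest were C4bpa (r = 0.88), Retnla (0.87), a resistin-like protein secreted in type 2 inflammation, Noxo1 (0.86), Atp6v0d2 (0.82), a subunit of the proton pump, and Tiam1 (0.82). C4bpa gave r = 0.90 over the 18 silica rats and r = 0.90 over the 18 air rats, and Retnla gave 0.87 in silica rats and 0.90 in air rats. In each of the 3 air groups the same rat had the highest level of Slc26a4, C4bpa, Retnla and Noxo1: replicate 6 at 3 weeks, replicate 4 at 6 weeks and replicate 5 at 12 weeks. For C4bpa at 6 weeks the lead was slight, 9.196 against 9.191 in replicate 1. These genes were picked by their correlation on the same arrays, so neither the shared rats nor the split by treatment is separate evidence. At 6 weeks, air replicate 4 had log2 levels of 8.10 for Slc26a4, 9.20 for C4bpa, 11.24 for Retnla and 7.03 for Noxo1, against 6.07, 8.71, 9.47 and 5.96 in air replicate 6. In whole lung, more cells of a type and more RNA per cell cannot be told apart.

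Lpo had another set of neighbours. With the air mean of the week subtracted the closest were Mmp7 (r = 0.95), the protease matrilysin, and Orm1 (0.94), an acute-phase plasma protein, followed by Scn10a (0.84), Gja1 (0.83), Wfdc18 (0.82), Sp5 (0.82), Selp (0.81) and Cxcl11 (0.80). At 12 weeks Mmp7 and Orm1 were each detected in all 6 silica rats, against 0 of 6 air rats. Their differences were 0.20 and 0.24 at 3 weeks and 1.14 and 0.98 at 12 weeks (log2). Among the deviations from group means, Mmp7 (0.82), Orm1 (0.81), Serpina3n (0.76), Mis18a (0.73) and Utp20 (0.69) were closest to Lpo.

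This likeness came from 1 group. Within the 6 silica rats of 12 weeks Lpo had r = 0.96 with Mmp7 and 0.99 with Orm1, and the other 30 arrays, on which Lpo was at background, gave -0.03 and -0.21. Serpina3n, Mis18a and Utp20 gave 0.87, 0.93 and 0.81 in that group and 0.26, 0.21 and 0.27 on the other 30 arrays. Replicate 2 had the highest log2 level of Lpo (7.30), Mmp7 (6.52) and Orm1 (6.36), and replicate 3 had the lowest, at 5.40, 5.10 and 4.91. Replicate 3, whose array stood apart, was also the lowest of the group for Serpina3n (4.592), Mis18a (4.683) and Utp20 (6.495). No correlation without that array alone is given here. For Slc26a4 and C4bpa the same split gave 0.83 and 0.90, so that pair did not rest on the group. Between Slc26a4 and Lpo themselves r was 0.52 with the air mean subtracted and 0.24 over the deviations.

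**Figure D4:**
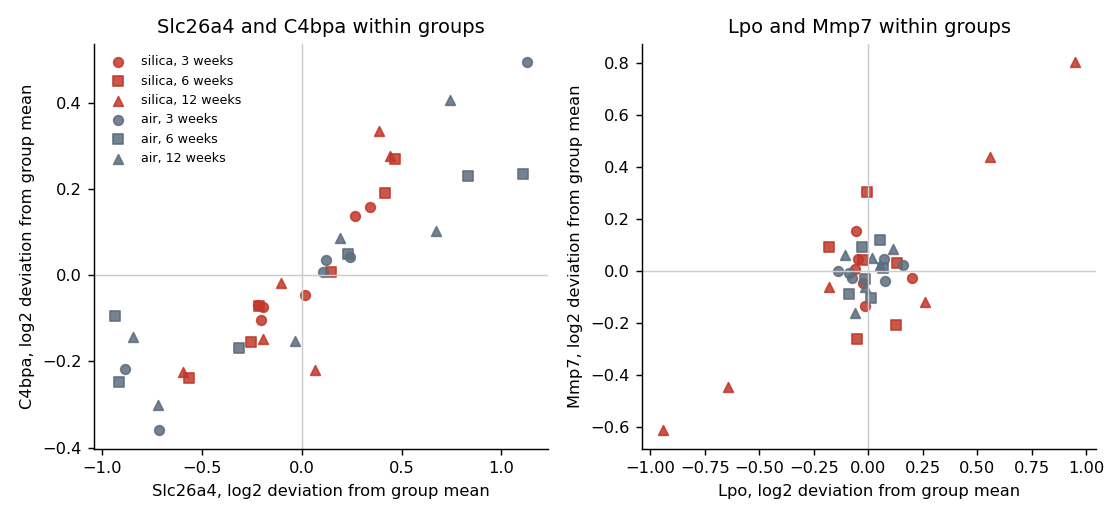
Deviation of each rat from its group mean (log2), for C4bpa against Slc26a4 (left) and for Mmp7 against Lpo (right), 36 rats each. In the left panel all groups follow 1 line, and in the right panel the trend is carried by the 12-week silica rats.

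The genes around both members were described from 9 lists of 127 genes, of which 79 were tested. After silica 23 rose and 3 fell at 3 weeks (32.9% called, against 13.6% of all tested genes, of which 7.5% rose and 6.08% fell), 26 rose and 4 fell at 6 weeks (38%, against 17.3%, with 8.79% up and 8.52% down) and 29 rose and 5 fell at 12 weeks (43%, against 25.9%, with 11.7% up and 14.2% down). A call is a limma adjusted p under 0.05 after the Benjamini-Hochberg method over all tested genes. The lists were drawn up with earlier results of these arrays known, so these shares are no independent evidence.

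Of the enzymes and subunits that supply peroxide, 7 were tested, and 3, 2 and 3 rose at 3, 6 and 12 weeks while 1 fell at 12 weeks. The median change was 0.18, 0.14 and -0.03 (log2), against -0.001, -0.016 and -0.016 over all tested genes. Noxo1 changed most, with raw intensities of 401.1 to 879 in silica rats and 136 to 246.7 in air rats at 12 weeks, and rose by 1.59, 2.33 and 1.99 (log2) over the weeks (limma adjusted p from 1.42e-12 to 3.46e-08). Cyba, the p22phox subunit, rose by 0.36, 0.44 and 0.51, and Cybb, the phagocyte oxidase NOX2, rose by 0.63 at 12 weeks (adjusted p = 0.00211) and differed by 0.42 at 6 weeks (adjusted p = 0.0506). Noxa1, the activator subunit, rose by 0.27 at 3 weeks (adjusted p = 0.0191, but 0.0766 without silica replicate 6 and 0.121 in a fit of the 3-week arrays alone). Duox2, an oxidase that feeds lactoperoxidase in airways, fell by 0.25 at 12 weeks (adjusted p = 0.00384), in a dim probe above the detection limit in 2 of the 6 silica rats, against all 6 air rats. This call was lost in a fit of the 12-week arrays alone (adjusted p = 0.0519), and the difference was -0.02 with the background from all probes. Its maturation factor gene Duoxa1 and Nox4 were called at no week, with differences from -0.19 to 0.05. No probe carried the symbol of Duox1, Duoxa2 or Nox1, so these genes of the list were not measured here.

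Among the other haem peroxidases and the other members of the pendrin family, little passed the test. Neither tested peroxidase was called: Mpo, of neutrophils, differed by 0.00, 0.02 and -0.06 (log2) and Ptgs2, cyclooxygenase 2, by 0.35, -0.16 and 0.23, while Epx, of eosinophils, was detected on 0 of 36 arrays. Of the SLC26 family, Slc26a3, a chloride and bicarbonate exchanger of the gut, fell by 0.35 at 6 weeks (limma adjusted p = 0.0109) and rose by 0.27 at 12 weeks (adjusted p = 0.0406), a rise that lost its call without any 1 of 8 of the 12 rats and under 5 other settings. The Slc26a3 probe was dim, with raw intensities at 6 weeks of 55.37 to 66.28 in silica rats and 60.86 to 79.8 in air rats. At that week 3 of 6 silica rats and 6 of 6 air rats passed the detection limit. Over the alternatives the 6-week difference ran from -0.40 to -0.03 (log2), the call being kept. Slc26a2 and Slc26a9 were not called, Slc26a5 was detected on 4 arrays, too few for the test, and Slc26a1, Slc26a7 and Slc26a10 were detected on 0 of 36 arrays.

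Of 11 other epithelial anion transport genes, 1, 1 and 2 rose at 3, 6 and 12 weeks and 1 fell at 6 weeks, with medians of 0.12, 0.02 and 0.01 (log2). Slc5a8, a sodium-coupled carrier of monocarboxylates, rose by 0.48, 0.38 and 0.41 (limma adjusted p from 0.0076 to 0.0286), and the 6-week call was lost without any 1 of 4 rats (silica replicates 4 and 5, air replicates 3 and 6) and the 12-week call without air replicate 3. The 6-week call was also lost with the background from all probes, with median scaling and in a fit of that week alone. Ano1, a calcium-activated chloride channel, fell by 0.29 at 6 weeks (adjusted p = 0.0139). Its probe was dim, with raw intensities of 59.7 to 82.37 in silica rats and 68.93 to 89.63 in air rats. Over the alternatives that difference ran from -0.34 to -0.03, the call being kept where the gene was tested. Slc4a4, a sodium bicarbonate cotransporter, rose by 0.38 at 12 weeks (adjusted p = 0.0412), a call lost without any 1 of 8 of the 12 rats and under 6 other settings. Of 12 genes that form thiocyanate or reduce thiols, 2, 5 and 4 rose and 1 fell at 12 weeks, with medians of 0.11, 0.11 and 0.09. Prdx5, a peroxiredoxin, rose by 0.37, 0.61 and 0.46, Txnrd1, a thioredoxin reductase, by 0.28 at 3 weeks (adjusted p = 0.0131, but 0.0573 without air replicate 5 and 0.124 with median scaling), and Glrx, glutaredoxin, by 0.24 and 0.40 at 6 and 12 weeks, the 6-week call being lost with median scaling (adjusted p = 0.0676). Cth, which splits cystathionine to cysteine, fell by 0.31 at 12 weeks (adjusted p = 0.0119, but 0.0513 without silica replicate 3).

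Secreted proteins of airway defence, the company of lactoperoxidase, rose in 4, 5 and 6 of 12 at 3, 6 and 12 weeks and fell in 0, with medians of 0.28, 0.30 and 0.14 (log2). Lcn2 rose by 1.87, 3.03 and 2.59, S100a8, a calprotectin subunit of neutrophils, by 0.48, 0.74 and 0.97, Pigr, the receptor that carries IgA across the epithelium, by 0.58 and 0.88 at 6 and 12 weeks, and Slpi, a protease inhibitor, by 0.64 and 0.89 at 3 and 12 weeks. The 3-week call of Slpi was lost in a fit of that week alone (adjusted p = 0.0742). S100a9, the gene of the other calprotectin subunit, was detected on 0 of 36 arrays. Of the cytokines that induce pendrin, Il4 and Il13 were detected on 1 of 36 arrays each. Of 16 genes of the IL-4 and IL-13 list, 3, 3 and 3 rose and 3, 2 and 3 fell: Retnla rose by 1.36, 1.40 and 2.19, the arginase Arg1 by 0.64, 0.90 and 0.87 and the chemokine Ccl17 by 0.72, 0.74 and 0.82, while the lipoxygenase Alox15 fell by 0.69, 0.72 and 0.87. The medians of that list were 0.15, -0.02 and 0.003.

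Of 12 genes of the IL-1, TNF and IL-17 list, 8, 9 and 8 rose and 0 fell, with medians of 0.42, 0.66 and 0.52 (log2). The neutrophil-attracting chemokine genes Cxcl1 and Cxcl2 rose by 1.03, 2.03 and 1.54 and by 0.85, 1.62 and 1.13. Cxcl6, of the same kind, passed the detection limit in every silica rat and in 0 of 6 air rats at each week. Against the lowest detected signal on the air arrays it was 2.46-, 11.3- and 4.92-fold higher, which is not a firm lower limit. These folds belong to the processing used here. With the background from all probes the differences were 0.15 (adjusted p = 0.365, the call being lost), 1.07 and 0.43 (log2). Of 6 tested genes of ionocytes and intercalated cells, the acid-base cells in which pendrin is known from airway and kidney, 3, 2 and 3 rose and 0 fell, with medians of 0.16, 0.10 and 0.13. They included Atp6v0d2 (1.25, 1.51 and 1.24), which macrophages and osteoclasts also express, and the ammonia transporter gene Rhbg (0.34, 0.44 and 0.48), as well as Atp6v1c2, a proton pump subunit, at 3 weeks (0.24) and Car2, carbonic anhydrase 2, at 12 weeks (0.17). The call of Atp6v1c2 was lost without silica replicate 4 and with median scaling, and that of Car2 without any 1 of 8 of the 12 rats and under 3 other settings. Foxi1, the transcription factor that defines ionocytes, was detected on 0 of 36 arrays.

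**Figure D5:**
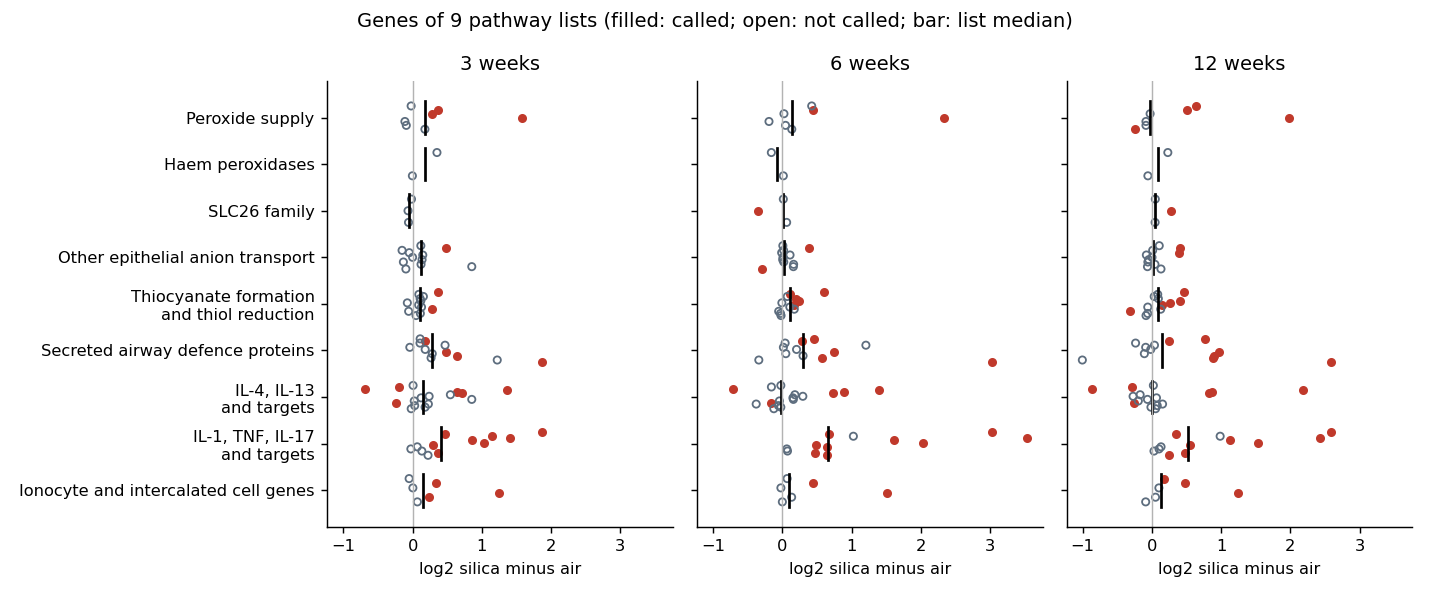
Difference between silica and air (log2) at 3, 6 and 12 weeks for the tested genes of the 9 lists, 1 point per gene, neither Slc26a4 nor Lpo included. Filled points passed the test, open points did not, and the bars mark list medians. The IL-1, TNF and IL-17 list has the highest median at each week, between 0.42 and 0.66.

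The silica effect itself differed between weeks in few list genes. From 3 to 6 weeks, 2 of 79 had a larger effect (2.53%, against 0.0771% of all tested genes, 0.0661% with a larger effect), Cxcl6 and Nfkbiz, the second of which was outside the naming rule. From 3 to 12 weeks, 3 had a larger effect and 1, Duox2, a smaller one (5.06%, against 2.86%, of which 1.53% larger and 1.33% smaller). From 6 to 12 weeks, limma called 0 (against 0.011%), and 12 had an unadjusted p under 0.05. The 3 larger effects from 3 to 12 weeks were those of Cxcl6, Pigr and Glrx, and without both arrays that stood apart their number was 0. Between the air groups of the 3 weeks 49 of 79 list genes differed (62%, against 75.8% of all tested genes).

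Markers of cells and neighbouring tissues that could carry either member were read beside them. For Slc26a4, the thyroid is a tissue of high known expression. Of 5 tested thyroid markers 0, 1 and 1 rose at 3, 6 and 12 weeks and 1 fell at 12 weeks. The list medians were 0.08, 0.02 and -0.13 (log2). The thyroglobulin gene Tg was called at no week, Tshr rose by 0.22 and 0.17 (log2) at 6 and 12 weeks, and Duox2 fell by 0.25 at 12 weeks. The summed level of the list was 169 to 201.1 in silica rats and 172.2 to 201.4 in air rats at 12 weeks. For Lpo, glands are the usual source: Bpifa2, Amy1, Pip and Ltf were detected on 0 of 36 arrays, Smgc on 2, and the tested Prol1 was called at no week. Their levels were thus at or near background in the rats in which Lpo was detected. Oesophageal and heart muscle markers were called at no week, although the heart sums spanned 86.23 to 1778 in silica rats and 99.56 to 3937 in air rats at 12 weeks.

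Of the lung's own cells, club cell markers were called in 1 of 6, Cldn10, a claudin, which rose by 0.89, 0.96 and 0.91 (log2), while Scgb1a1, the club cell secretory protein, was called at no week. None of 3 tested goblet cell markers was called, and of 5 ciliated cell markers 1, Tppp3, fell by 0.39 at 12 weeks. Type II pneumocyte markers rose in 2, 4 and 2 of 5, and their summed level at 12 weeks was 44870 to 48280 in silica rats and 40030 to 44700 in air rats. Neutrophil markers rose in 1, 2 and 2 of 5, with median changes of 0.13, 0.21 and -0.02 (log2). Over all tested genes the medians were -0.001, -0.016 and -0.016. The neutrophil sums were 1693 to 2913 in silica rats and 944 to 1821 in air rats at 12 weeks. Most of these sums was S100a8 alone, with mean log2 levels of 11.08 in silica rats and 10.11 in air rats. Elane and S100a9 were each detected on 0 of 36 arrays and Mpo was not called. Eosinophil markers fell in 1 of 3 at 3 and at 12 weeks, and of 4 alveolar macrophage markers 1, 2 and 2 rose and 1 fell at each week. The part of any of these cells in the levels of Slc26a4 or Lpo was not tested.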

How the data were processed

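Lung RNA of 36 rats was measured on 36 Illumina BeadChip arrays. Per the file headers, the deposited table gives a mean bead intensity and a detection p-value for each probe and array, with no values below 0. A second deposited table holds log2 values processed by the authors, with a transformation that is not stated; its tools, per the submitters' processing notes, were BeadStudio, lumi and limma. The members and lists were chosen with earlier results of these data known.

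A background of 47.31 ± 8.57 (medians of mean and SD over arrays) was inferred from the 21207 probes whose detection p lay on the grid of 825 negative controls. Normexp correction, quantile normalisation and log2 with an offset of 16 followed (neqc, limma 3.58.1, R 4.3.3). Symbols came from RefSeq through 13349 Entrez numbers and 5 accessions, with 34 from the array, while 8404 probes had none. The 9078 genes detected (p under 0.05) on at least 6 arrays were tested in 1 fit of 6 group means with 30 residual degrees of freedom, by two-sided moderated tests. The brightest probe stood for 19 genes with several. A probe undetected in a whole group has no measured level there. Where a fold is given for it, that level was replaced by the lowest detected signal of each array, or its own if higher. Such a fold is not a firm lower limit.

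Genes were named by rule: all measured genes of the peroxide, peroxidase and SLC26 lists, up to 4 called genes of each other list by size, the 8 and 5 genes most like each member, and list counts. The model was tested on simulated data. Replicate numbers did not pair samples: 18 same-numbered pairs had correlations from -0.271 to 0.443, with 7 over 0.1. Replicates correlated at 0.9895 to 0.998 on the raw log2 scale. Alternatives changed the background, scaling, offset, filter, arrays, weights or block.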

Additional observations from a re-analysis of the deposited data

Results flagged for a closer look

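Of 216 checks (36 genes in 6 groups), 14 had 1 rat far from the other 5, and chance alone marks about 1 group in 20. For Lpo this was the brightest silica rat at 3 weeks, replicate 2, at a log2 level of 5.03 against 4.81 for the next, the only detected rat of that group. No group of Slc26a4 met the criterion.

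Among list genes, the lowest rat stood apart for Ptgs2 in air at 12 weeks (5.45), for Cxcl1 (11.25) and Cxcl2 (6.59) in silica at 12 weeks, both in replicate 5, for Slc4a4 in air at 6 weeks (5.48), for Pigr in silica at 3 weeks (11.64) and for Glrx in silica at 6 weeks (9.39). The highest rat stood apart for Lcn2 in air at 6 weeks (7.65), in the replicate 4 that was also highest for Slc26a4, and for Ccl17 in silica at 3 weeks (7.39). The same held for Slc4a4 in air at 3 weeks (6.36), for Slc26a9 in silica at 6 weeks (5.12) and in air at 12 weeks (5.1), and for Slpi in air at 3 weeks (11.6) and at 12 weeks (10.54).

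The silica effect differed between weeks, by the limma contrast of the effects, for 4 named genes of the pathway lists. For Cxcl6 it was larger by 2.14 ± 0.27 at 6 weeks (log2, SE, adjusted p = 4.07e-05) and by 1.03 ± 0.27 at 12 weeks (adjusted p = 0.0396) than at 3 weeks. For Duox2 it differed by -0.43 ± 0.09 between 12 and 3 weeks (adjusted p = 0.0175), for Pigr by 0.61 ± 0.15 (adjusted p = 0.0269) and for Glrx by 0.28 ± 0.08 (adjusted p = 0.0437). The 3-week air arrays, in which Cxcl6 and Duox2 were not detected, enter these differences. The larger effects at 12 than at 3 weeks lost their calls without both arrays that stood apart. With single rats left out, the list genes with such a larger effect numbered from 0 to 6.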

How the results depend on the processing

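Slc26a4 was higher in silica rats in all 69 and Lpo in all 66 recomputed values. These values came from the same arrays, and both genes were chosen with their rise known, so the shared sign is no independent evidence. The Lpo values of 3 and 6 weeks lay at or near background. Slc26a4 ranged over 1.86 to 2.58 at 3 weeks, 2.60 to 3.66 at 6 weeks and 2.51 to 3.23 at 12 weeks (log2), the authors' values giving the lowest. Lpo at 12 weeks was 1.01 with an offset of 50, 0.98 with no background correction, 0.51 in the authors' values and 0.24 with the background from all probes. At 3 weeks it was 0.038 in the authors' values and 0.017 with that background, and at 6 weeks 0.035, 0.019 and, with an offset of 50, 0.07. Lpo fell out where detection on 18 arrays was asked for. The correlation of both genes was 0.86 with median scaling. The cause of these shifts was not tested.

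Leaving out single rats gave ranges of 2.18 to 2.58, 3.25 to 3.66 and 2.91 to 3.23 for Slc26a4, and 0.12 to 0.20, 0.14 to 0.20 and 1.54 to 1.92 for Lpo, at 3, 6 and 12 weeks. List genes called higher then numbered 20 to 27, 24 to 27 and 25 to 28, lower 2 to 3, 4 to 5 and 5 to 7, and between air groups 46 to 49. Effects larger at 12 than at 3 weeks numbered 0 to 6, smaller 1, larger and smaller at 12 than at 6 weeks 0 to 1 and 0 to 2, and larger at 6 than at 3 weeks 2 to 3.

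Asking for detection on 18 arrays left 2 fallen at 6 weeks and 3 at 12 weeks, and median scaling left 1 at 3 weeks. Effects larger at 12 than at 3 weeks were 1 with median scaling, no filter or array weights, and 0 without both arrays that stood apart (an alternative chosen after seeing the data), and smaller ones were 0 on 18 arrays. Between 12 and 6 weeks 1 was larger with array weights and without both arrays, and 1 was smaller with the background from all probes, median scaling or an offset of 50, and 2 with array weights and without both arrays. From 3 to 6 weeks 1 was larger with the background from all probes, no background correction or 18 arrays. Of 2334 recomputed values of named list genes, 2256 kept their side of the threshold and their direction, 57 lost and 21 gained a call, and 0 reversed. With the replicate number as a block, 22, 26 and 28 list genes rose, 49 differed between air groups and 4 had larger effects at 12 than at 3 weeks. Slc26a4 stayed at 2.36, 3.44 and 3.08 under the block. The smallest signals, such as Lpo before 12 weeks, are limited by the background of about 47.31.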
